A study of Homo sapiens with 6 samples.

Results

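EGR1, 7 dual-specificity phosphatase genes (DUSP1, DUSP4, DUSP5, DUSP6, DUSP7, DUSP8 and DUSP10) and the Sprouty genes SPRY2 and SPRY4 were followed in DU145 cells after knockdown of RCC2. These 10 genes were chosen by name, with earlier results of these data known. Each had 1 row among the 50868 genes of the count tables. DU145 is an established human prostate cancer line that grows without androgen. RNA was sequenced from 3 libraries labelled siRCC2, whose genotype is given as RCC2 knockdown, and from 3 labelled siCtrl, given as RCC2 wild type. All libraries came from this 1 line, and the sources used here do not give the siRNA sequence, its dose or the time after transfection. Separate cultures are not named for the replicates. The p-values therefore reflect variation among these 6 libraries, part or all of which could be technical.

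The ERK pathway carries growth factor signals from receptor tyrosine kinases through RAS, RAF and MEK to the kinases ERK1 and ERK2. Active ERK switches on a set of genes quickly, EGR1 among them, and several of the induced genes act back on the pathway. Dual-specificity phosphatases of this family remove phosphate from the threonine and the tyrosine that activate a MAP kinase, and Sprouty proteins dampen signalling between the receptor and RAF. Their mRNAs are therefore often read together as a trace of recent ERK activity, although other pathways also induce them.

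EGR1, DUSP1, DUSP4, DUSP5, DUSP6 and SPRY4 were lower in siRCC2 cells, SPRY2 and DUSP8 were higher, and DUSP7 and DUSP10 did not pass the test. Thus 8 of the 10 genes changed at an adjusted p under 0.05 (edgeR quasi-likelihood test, Benjamini-Hochberg adjustment over all 16536 genes tested), against 41.8% of all tested genes. The 6 that fell stand beside a background of 21.1% of tested genes lower, and the 2 that rose beside 20.7% higher. In 9 of the 10 genes the siRCC2 libraries lay fully apart from the siCtrl libraries, against 55.4% of all tested genes: 6 genes were below (28.5% of all) and 3 above (26.9% of all). All 10 passed the filter on low counts. Their median log2 fold change, siRCC2 over siCtrl, was -0.58, against -0.02 over all tested genes. Summed over the 10 genes, the level was 511 to 538 CPM (counts scaled to library size by TMM) in siRCC2 libraries and 970 to 1005 CPM in siCtrl libraries. In a bulk library, less RNA per cell and fewer cells that express a gene cannot be told apart.

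**Figure D1:**
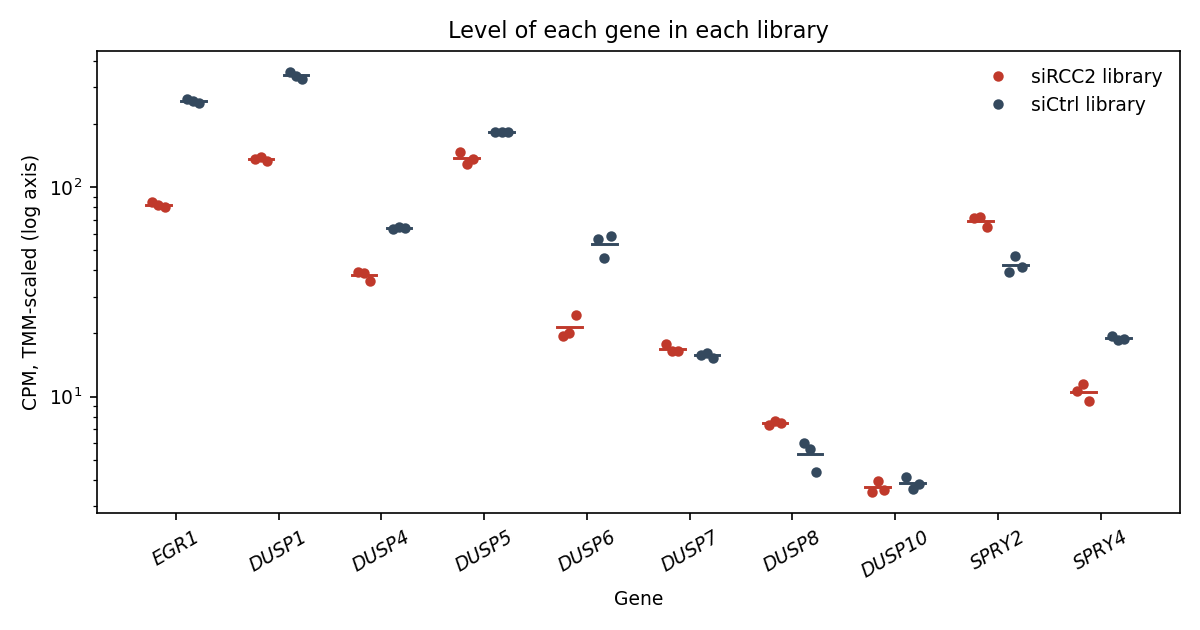
Level of each gene in each library, in TMM-scaled CPM on a log axis, with siRCC2 libraries left of siCtrl libraries; points are libraries and bars are means of 3. EGR1 and DUSP1 show the clearest drop, SPRY2 is higher in siRCC2 libraries, and the points of DUSP10 overlap between the groups.

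RCC2 itself had 980, 1117 and 1045 counts in siRCC2 replicates 1 to 3 and 3998, 3598 and 3702 counts in siCtrl replicates 1 to 3, so it fell by 70.6% in siRCC2 cells. Total counts ran from 17377191 to 19895431 per library, and 1 CPM on the TMM-scaled library sizes is 16.5 to 20.2 reads. The main axis of variation (62.3% of the variance of log CPM) separated the groups, and the second (16.4%) set siRCC2 replicate 1 apart from the other siRCC2 libraries. Without that library 7 of the 10 genes changed, since DUSP8 missed the threshold. Of 11 markers of prostate epithelium and DU145, 7 could be tested, 5 rose and 2 fell, and their sum was 3469 to 4088 CPM in siRCC2 libraries and 4673 to 4905 CPM in siCtrl libraries. Without siCtrl replicate 1 or 2 or siRCC2 replicate 2, 1 of them fell. The keratin KRT7, the most abundant of them, fell to 1636 CPM in siRCC2 cells, against 3588 CPM in siCtrl cells, and EPCAM, an epithelial adhesion molecule, fell to 11.0 CPM in siRCC2 cells, against 15.4 CPM in siCtrl cells. KRT8, another epithelial keratin, rose to 729 CPM in siRCC2 cells, against 462 CPM in siCtrl cells. Among luminal prostate genes FOLH1 had no read in any library and KLK3 had at most 1 count. The 14 markers of immune, endothelial, stromal and neuroendocrine cells summed to 32.5 to 36.5 CPM in siRCC2 libraries and 37.3 to 42.0 CPM in siCtrl libraries, with CD3E and LUM at 0 in all libraries and PTPRC at most 1 count. Of these 14, 6 could be tested, and 1 of them rose (COL3A1, a call lost in 10 of 16 alternatives) and 3 fell. Of those that fell, COL1A1 lost its call in 9 of 16 alternatives. The number that rose was 2 without siCtrl replicate 2 and 0 without any other 1 library. The number that fell was 3 without siRCC2 replicate 3 and 2 without any other 1 library. Their part in the results was not tested.

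EGR1, a zinc finger transcription factor that ERK induces within minutes of growth factor stimulation, had the largest fold change of the 10 genes. The gene (ENSG00000120738) lies on the plus strand of GRCh38 chromosome 5, from 138465490 to 138469315. Its level was 85.3, 82.0 and 80.3 CPM in siRCC2 replicates 1 to 3, against 263, 257 and 252 CPM in siCtrl replicates 1 to 3. All 3 siRCC2 libraries lie far below all 3 siCtrl libraries, and the spread within each group is small. The log2 fold change was -1.64 ± 0.06 (SE; 95% confidence interval -1.79 to -1.49; adjusted p = 2.00e-05), so EGR1 mRNA fell by 67.9%. In absolute fold change it ranked above 96.6% of tested genes.

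The promoter of EGR1 is shown because it holds the DNA element through which ERK is best known to act on this gene. Serum response factor binds the CArG box together with ternary complex factors such as ELK1, which ERK phosphorylates. The window runs from 250 bases before to 50 bases after the RefSeq start (GRCh38.p14, chr5:138465229-138465528, plus strand), and capitals mark CArG boxes:
EGR1: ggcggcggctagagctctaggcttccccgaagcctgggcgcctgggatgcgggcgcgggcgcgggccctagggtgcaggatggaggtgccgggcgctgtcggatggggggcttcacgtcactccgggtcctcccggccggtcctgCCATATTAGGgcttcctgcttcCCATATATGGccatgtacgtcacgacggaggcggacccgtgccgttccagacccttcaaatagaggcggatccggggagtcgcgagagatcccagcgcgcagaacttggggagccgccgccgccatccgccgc
The search found 2 CArG boxes, CCATATTAGG from 105 to 96 bases and CCATATATGG from 83 to 74 bases before the start. Of 35116 RefSeq promoter windows of this length, 1.29% hold a CArG box on either strand. DUSP4 and DUSP5 had no window, so their promoters were not searched for this or any other motif. Among the 8 of the 10 genes with a window, EGR1 is the only one with such a match. These are matches of letters, and binding was not measured.

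Among the phosphatases that act mainly in the nucleus, DUSP1, DUSP4 and DUSP5 all fell. DUSP1 (MKP-1; ENSG00000120129, chromosome 5, 172768090 to 172771195, minus strand) dephosphorylates p38 and JNK as well as ERK and is itself an immediate early gene. It had 137, 139 and 133 CPM in siRCC2 replicates 1 to 3, against 355, 340 and 329 CPM in siCtrl replicates 1 to 3. No siRCC2 library came near a siCtrl library. The log2 fold change was -1.33 ± 0.06 (SE; adjusted p = 3.43e-05), so DUSP1 fell by 60.1%. The ratio of DUSP1 to EGR1 counts within a library, which needs no scaling, was 1.60, 1.69 and 1.66 in siRCC2 replicates 1 to 3, against 1.35, 1.32 and 1.31 in siCtrl replicates 1 to 3.

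DUSP4 (MKP-2; ENSG00000120875, chromosome 8, 29333064 to 29350668, minus strand), a nuclear phosphatase induced by ERK, had 39.5, 38.8 and 35.8 CPM in siRCC2 replicates 1 to 3. In siCtrl replicates 1 to 3 it had 63.2, 64.6 and 63.8 CPM. The groups did not overlap, and the log2 fold change was -0.75 ± 0.08 (SE; adjusted p = 0.000437). DUSP5 (ENSG00000138166, chromosome 10, 110497838 to 110511544, plus strand), a nuclear phosphatase with a strong preference for ERK, had 146, 129 and 136 CPM in siRCC2 replicates 1 to 3, against 183, 183 and 182 CPM in siCtrl replicates 1 to 3. Its siCtrl libraries were almost equal, while siRCC2 replicate 1 lay nearest to them. The log2 fold change of -0.42 ± 0.07 (SE; adjusted p = 0.00306), a drop of 25.1%, was the smallest among the 6 genes that fell and close to the median absolute change of all tested genes, 0.40.

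The cytoplasmic phosphatases DUSP6 and DUSP7 had different values. DUSP6 (MKP-3; ENSG00000139318, chromosome 12, 89347232 to 89353271, minus strand) holds and dephosphorylates ERK in the cytoplasm and is widely used as a readout of ERK output. It had 19.5, 20.1 and 24.5 CPM in siRCC2 replicates 1 to 3, against 56.4, 45.9 and 58.6 CPM in siCtrl replicates 1 to 3. The groups lie well apart although each has 1 library away from the other two, replicate 3 in siRCC2 and replicate 2 in siCtrl. The log2 fold change was -1.33 ± 0.14 (SE; adjusted p = 0.000445), about the value of DUSP1 with a standard error more than 2 times as large.

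DUSP7 (MKP-X; ENSG00000164086, chromosome 3, 52048919 to 52056550, minus strand) is the close relative of DUSP6 with the same preference for ERK. It had 17.8, 16.4 and 16.6 CPM in siRCC2 replicates 1 to 3, against 15.8, 16.1 and 15.3 CPM in siCtrl replicates 1 to 3. Each siRCC2 value was above each siCtrl value by a small margin, and the change did not pass the test (log2 fold change 0.11 ± 0.10, SE; adjusted p = 0.415). Its 95% confidence interval, -0.12 to 0.33, leaves out the log2 fold change of DUSP6. The ratio of DUSP6 to DUSP7 counts was 1.099, 1.22 and 1.48 in siRCC2 replicates 1 to 3, against 3.57, 2.85 and 3.83 in siCtrl replicates 1 to 3.

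DUSP8 and DUSP10 encode phosphatases that prefer JNK and p38 to ERK, and they were the least abundant of the 10 genes in CPM. DUSP8 (ENSG00000184545, chromosome 11, 1554044 to 1571920, minus strand) had 121, 149 and 143 counts in siRCC2 replicates 1 to 3, against 121, 104 and 85 counts in siCtrl replicates 1 to 3. Scaled to library size, its siRCC2 libraries were alike (7.32 to 7.68 CPM) and lay above the siCtrl libraries, of which replicate 3 was the lowest at 4.38 CPM. The log2 fold change was 0.49 ± 0.15 (SE; adjusted p = 0.0376). That call was lost in 10 of 16 alternatives, among them the fits without siCtrl replicate 2 (adjusted p = 0.0799) or 3 (0.106), or without siRCC2 replicate 1 (0.0515), 2 (0.0933) or 3 (0.0698). DUSP10 (MKP-5; ENSG00000143507, chromosome 1, 221701424 to 221742176, minus strand) had 3.51, 3.97 and 3.57 CPM in siRCC2 replicates 1 to 3, against 4.12, 3.61 and 3.81 CPM in siCtrl replicates 1 to 3. The groups overlap (log2 fold change -0.06 ± 0.15, SE; 95% confidence interval -0.41 to 0.28; adjusted p = 0.753). With as few as 58 counts in a library, counting error alone is 13.1% for DUSP10.

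The promoters of DUSP1, which fell, and DUSP8, which rose, are shown together because, among the windows of these genes, they alone hold the full cyclic AMP response element TGACGTCA, the binding motif of CREB and ATF factors. Capitals mark that element. Both windows are on the minus strand of GRCh38.p14, DUSP1 at chr5:172771146-172771445 and DUSP8 at chr11:1572222-1572521, and both are written from 5′ to 3′ of the gene:
DUSP1: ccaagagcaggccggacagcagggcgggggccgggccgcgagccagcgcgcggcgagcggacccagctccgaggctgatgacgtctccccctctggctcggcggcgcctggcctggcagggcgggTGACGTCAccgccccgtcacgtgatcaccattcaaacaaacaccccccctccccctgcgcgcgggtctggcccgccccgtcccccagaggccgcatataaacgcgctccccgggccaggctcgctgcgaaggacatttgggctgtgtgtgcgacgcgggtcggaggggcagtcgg
DUSP8: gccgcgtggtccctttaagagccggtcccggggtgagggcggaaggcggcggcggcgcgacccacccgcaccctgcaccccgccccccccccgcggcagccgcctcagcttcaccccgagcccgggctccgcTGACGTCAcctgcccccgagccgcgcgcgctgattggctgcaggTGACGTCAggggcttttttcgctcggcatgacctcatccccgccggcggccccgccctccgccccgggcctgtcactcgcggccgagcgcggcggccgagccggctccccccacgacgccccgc
DUSP1 holds 1 such element, from 125 to 118 bases before its start, and DUSP8 holds 2, from 118 to 111 and from 74 to 67 bases before its start. The RefSeq start of DUSP8 lies upstream of the gene as the count tables place it, so the whole DUSP8 window is outside those coordinates. The element occurs in 1.85% of all promoter windows on either strand. Its shorter form TGACG, which each full element contains on both strands, is in 24.6% of windows and in those of 6 of the 8 genes searched (EGR1, DUSP1, DUSP8, DUSP10, SPRY2 and SPRY4). The EGR motif GCGNGGGCG is in 9.43% of windows and in those of EGR1, SPRY2 and SPRY4. The AP-1 motif TGANTCA is in 7.71% of windows and in none of the 11 windows of these genes. The ETS core GGAA is in 95.5% of windows, and in 8 of the 11 windows of these genes. It is absent from the windows of DUSP1 and DUSP7 and from a window of DUSP10.

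SPRY2 and SPRY4 moved in opposite directions. Of the other Sprouty genes, named once their values were known, SPRY1 fell (log2 fold change -0.65 ± 0.21, SE, adjusted p = 0.0404). It had 37, 29 and 42 counts in siRCC2 replicates 1 to 3 and 61, 56 and 63 in siCtrl replicates 1 to 3. SPRY3 did not pass the test (0.46 ± 0.25, adjusted p = 0.178). SPRY2 (ENSG00000136158, chromosome 13, 80335976 to 80340951, minus strand) encodes an inhibitor of growth factor signalling to RAS and RAF that also binds the ubiquitin ligase CBL. It had 71.1, 71.9 and 64.3 CPM in siRCC2 replicates 1 to 3, against 39.1, 47.1 and 41.6 CPM in siCtrl replicates 1 to 3. The lowest siRCC2 library was above the highest siCtrl library, and the log2 fold change was 0.70 ± 0.10 (SE; adjusted p = 0.00155), a level 62.1% higher. SPRY4 (ENSG00000187678, chromosome 5, 142310427 to 142326455, minus strand), its relative and another gene induced by ERK, had 10.6, 11.4 and 9.49 CPM in siRCC2 replicates 1 to 3. In siCtrl replicates 1 to 3 SPRY4 had 19.5, 18.7 and 18.9 CPM. The groups lie apart, and the log2 fold change was -0.85 ± 0.11 (SE; adjusted p = 0.00112). In each siRCC2 library there were 6.68, 6.28 and 6.77 SPRY2 counts per SPRY4 count, against 2.01, 2.52 and 2.20 in siCtrl replicates 1 to 3.

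**Figure D2:**
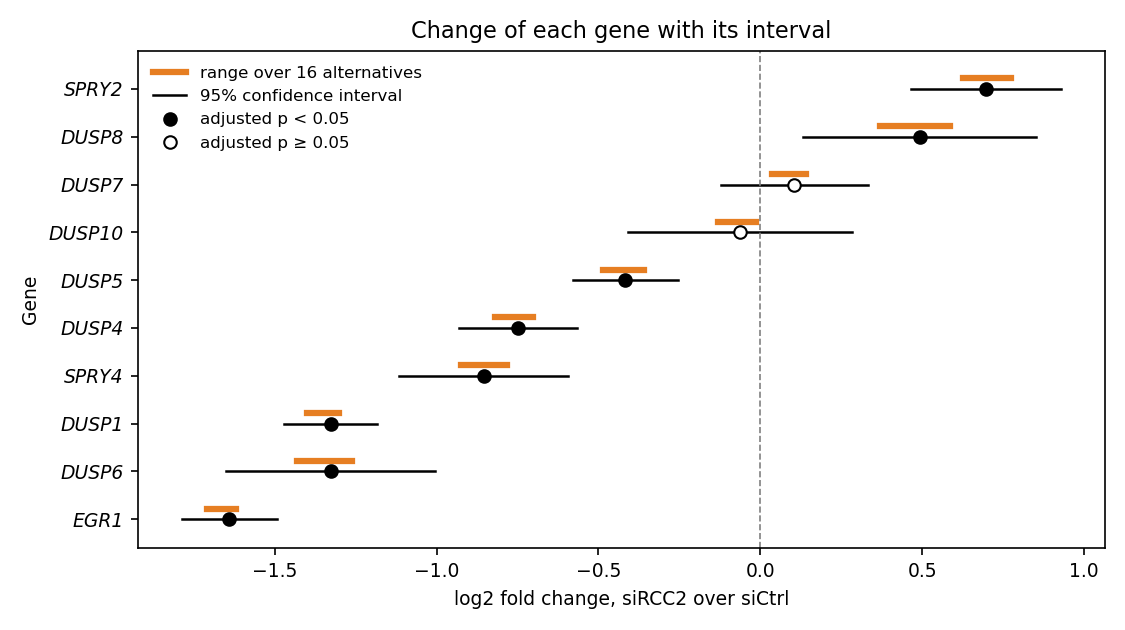
Log2 fold change of each gene, siRCC2 over siCtrl, as a point (filled where adjusted p is under 0.05) with its 95% confidence interval in black; the orange bar gives the range over 16 alternative analyses. EGR1, DUSP1 and DUSP6 lie below -1, SPRY2 and DUSP8 lie above 0, and the intervals of DUSP7 and DUSP10 cover 0.

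**Figure D3:**
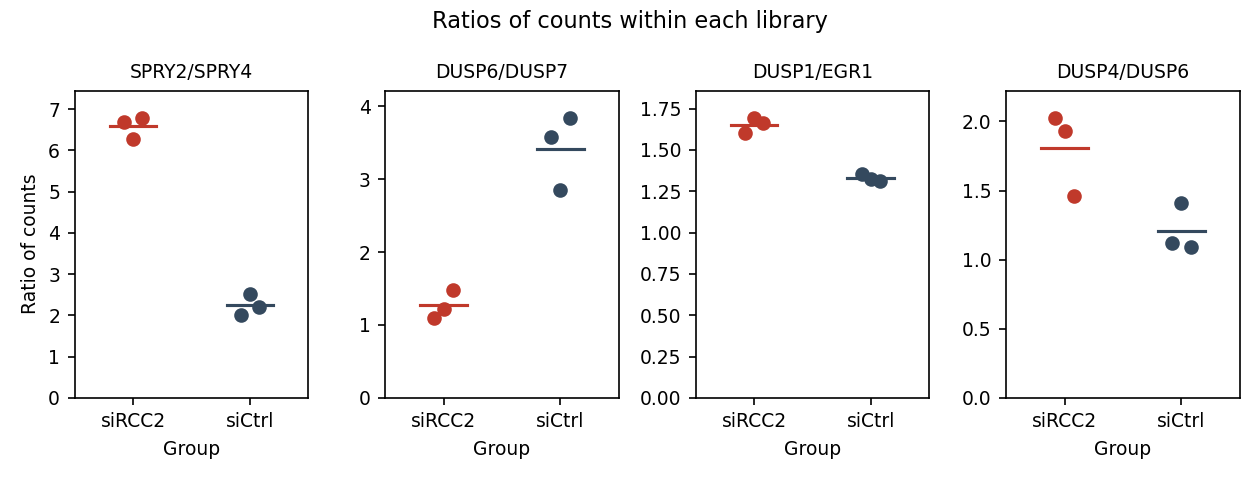
Ratios of counts within each library for 4 pairs of genes, with siRCC2 left of siCtrl; points are libraries, lines are means of 3 and each axis starts at 0. The groups do not overlap in any of the 4 pairs, and the SPRY2 to SPRY4 ratio averaged 6.58 in siRCC2 libraries and 2.24 in siCtrl libraries.

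These 4 pairs were chosen after the values were seen, and their ratios were not tested. For the fourth, DUSP4 to DUSP6, the ratio averaged 1.81 ± 0.30 in siRCC2 libraries and 1.21 ± 0.18 in siCtrl libraries (SD, n = 3 each), with siRCC2 replicate 3, at 1.46, just above siCtrl replicate 2, at 1.41.

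Levels of different genes were compared per kb of exon. In siRCC2 cells DUSP1 was the most abundant at 67.5 ± 1.34 CPM per kb (SD, n = 3), followed by DUSP5 at 52.4 ± 3.35, EGR1 at 26.3 ± 0.82 and SPRY2 at 22.7 ± 1.38 CPM per kb. DUSP4 (5.24 ± 0.27) and DUSP6 (4.61 ± 0.59) came next and overlapped, then DUSP7 (3.00 ± 0.13), DUSP8 (1.62 ± 0.04) and SPRY4 (1.60 ± 0.15), of which the last pair overlapped, and DUSP10 (1.26 ± 0.09). In siCtrl cells the order was DUSP1 at 169 ± 6.49, EGR1 at 82.0 ± 1.79, DUSP5 at 70.0 ± 0.16, SPRY2 at 14.03 ± 1.35, DUSP6 at 11.6 ± 1.47, DUSP4 at 8.80 ± 0.10, SPRY4 at 2.90 ± 0.06, DUSP7 at 2.79 ± 0.07, DUSP10 at 1.32 ± 0.09 and DUSP8 at 1.16 ± 0.18 CPM per kb. There SPRY4 overlapped with DUSP7 and DUSP10 with DUSP8, and the other neighbours lay apart. EGR1 thus stood above DUSP5 in each siCtrl library and below it in each siRCC2 library.

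The summed level of the 7 phosphatase mRNAs was 139, 134 and 134 CPM per kb in siRCC2 replicates 1 to 3, against 272, 263 and 259 CPM per kb in siCtrl replicates 1 to 3. DUSP1 made up 49.8 ± 1.44% of this sum in siRCC2 libraries and 63.9 ± 0.88% in siCtrl libraries (SD, n = 3 each). The share of DUSP5 was 38.6 ± 1.64% in siRCC2 libraries and 26.4 ± 0.64% in siCtrl libraries. DUSP6 held 3.41 ± 0.48% in siRCC2 libraries and 4.37 ± 0.56% in siCtrl libraries, and these shares overlapped between the groups. DUSP7, DUSP8 and DUSP10 had 2.21%, 1.2% and 0.93% in siRCC2 libraries and 1.05%, 0.44% and 0.50% in siCtrl libraries. DUSP4 held 3.86 ± 0.17% in siRCC2 libraries and 3.33 ± 0.11% in siCtrl libraries. Shares of one sum depend on each other.

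**Figure D4:**
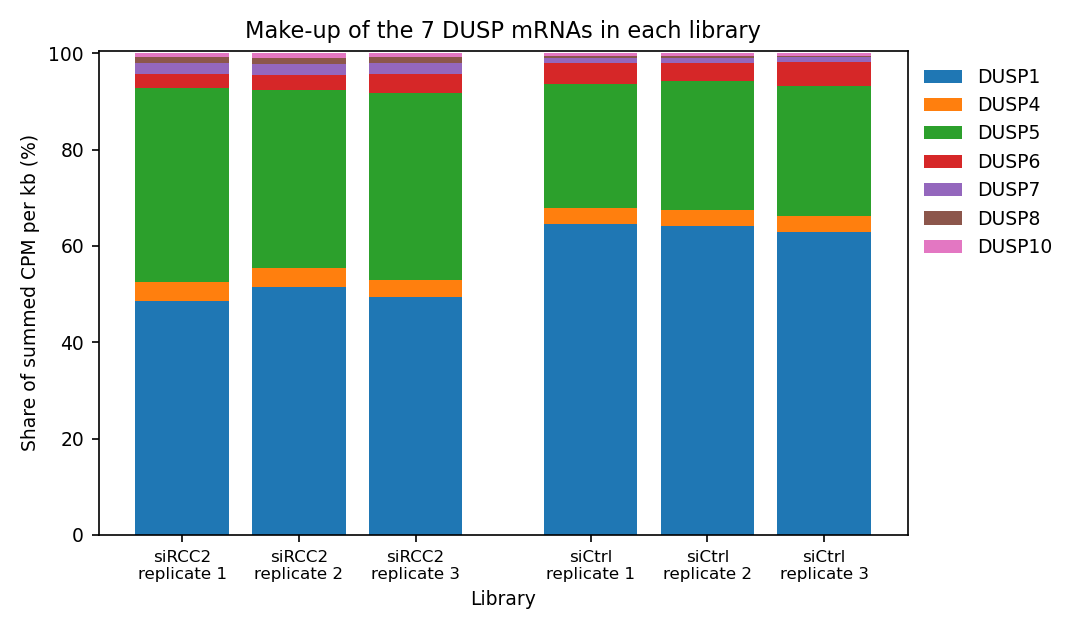
Share of each of the 7 DUSP mRNAs in their summed level (CPM per kb of exon, in percent), 1 bar per library, siRCC2 left of siCtrl. DUSP1 and DUSP5 fill most of each bar, and DUSP1 takes a smaller part in siRCC2 libraries (48.6% to 51.4%) than in siCtrl libraries (62.9% to 64.6%).

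Other genes that ERK is known to induce were lower more often than higher. Of 26 tested, 14 fell, 4 rose and 8 did not pass, with a median log2 fold change of -0.63. The 4 with the smallest p all fell. EPHA2, an ephrin receptor, averaged 156 CPM in siRCC2 cells and 516 CPM in siCtrl cells (log2 fold change -1.73 ± 0.08, SE; adjusted p = 3.47e-05). ETV5, an ETS transcription factor of the PEA3 group, averaged 46.1 CPM in siRCC2 cells and 112 CPM in siCtrl cells (-1.28 ± 0.08). Cyclin D1 (CCND1, -0.88 ± 0.06) and the cytokine LIF (-1.14 ± 0.08) fell too. Chosen for mention once their values were known, the 4 that rose were KLF10 (0.97 ± 0.18), BTG2 (0.69 ± 0.14), MCL1 (0.29 ± 0.07) and ZFP36 (0.24 ± 0.08). Leaving out 1 library gave 11 to 14 lower genes, and 2 higher genes without siCtrl replicate 2 or siRCC2 replicate 2.

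Other brakes on the pathway gave mixed counts. Of 7 tested MAP kinase phosphatases outside the 10 genes, 3 fell, 0 rose and 4 did not pass, with a median log2 fold change of 0.03; without siCtrl replicate 1, 1 rose. DUSP16 (MKP-7), which acts on JNK and p38, averaged 8.63 CPM in siRCC2 cells and 17.7 CPM in siCtrl cells (log2 fold change -1.04 ± 0.13, SE; adjusted p = 0.000841). DUSP9 (MKP-4), the third cytoplasmic ERK phosphatase beside DUSP6 and DUSP7, had 158, 160 and 141 counts in siRCC2 replicates 1 to 3 and 307, 293 and 258 counts in siCtrl replicates 1 to 3 (-0.82 ± 0.14; adjusted p = 0.00352). STYXL1, a catalytically inactive relative, fell (-0.45 ± 0.10), a call lost without siRCC2 replicate 2 (adjusted p = 0.0512). DUSP14 had a log2 fold change of 0.26 ± 0.10 (adjusted p = 0.0637). Of 18 inhibitors at the level of receptors and RAS, 6 fell, 4 rose and 8 did not pass (median -0.10). Without siRCC2 replicate 1 the counts were 8 lower and 7 higher, and without siCtrl replicate 2 or 3 or siRCC2 replicate 2 they were 4 lower and 2 higher. CBL, a ubiquitin ligase for activated receptors, fell to 86.6 CPM in siRCC2 cells, against 214 CPM in siCtrl cells (-1.30 ± 0.08). SPRED3, a Sprouty-related inhibitor, fell (-0.51 ± 0.09), and the RAS GTPase-activating proteins DAB2IP (0.50 ± 0.07) and RASAL2 (1.22 ± 0.22) rose.

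The kinases of the cascade themselves did not lean one way. Of 25 genes of the RAS, RAF, MEK and ERK core, 6 fell, 7 rose and 12 did not pass (median -0.18). ARAF fell to 31.0 CPM in siRCC2 cells, against 74.2 CPM in siCtrl cells (-1.26 ± 0.11). The scaffold gene KSR2 fell (-0.95 ± 0.15), and the adaptor gene SHC1 rose (0.47 ± 0.08). Of 19 receptors and ligands upstream, 4 fell, 2 rose and 13 did not pass (median -0.03); 2 fell without siCtrl replicate 1, and 1 rose without siRCC2 replicate 3 or any 1 siCtrl library. ERBB3 fell to 30.4 CPM in siRCC2 cells, against 60.6 CPM in siCtrl cells. MET (-0.54 ± 0.13) and ERBB2 (-0.27 ± 0.07) fell and NRG1 rose (0.84 ± 0.20), but the calls of MET, ERBB2 and NRG1 were lost in 2, 5 and 2 of 16 alternatives, with adjusted p up to 0.0531 (MET, without siCtrl replicate 3), 0.116 (ERBB2) and 0.0551 (NRG1, without siCtrl replicate 1). For ERBB2 the libraries whose omission lost the call were siCtrl replicates 1 and 2 and siRCC2 replicate 2.

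Of 17 transcription factors and kinases that ERK regulates, 5 fell, 7 rose and 5 did not pass (median 0.09). The related ETS genes moved apart: ETS2 averaged 334 CPM in siRCC2 cells and 159 CPM in siCtrl cells (log2 fold change 1.07 ± 0.07), and ETS1 averaged 73.6 CPM in siRCC2 cells and 151 CPM in siCtrl cells (-1.04 ± 0.07). CIC, a repressor of ETV genes that ERK inactivates, rose (0.67 ± 0.07), and RPS6KA5 (MSK1), a kinase that phosphorylates CREB, fell (-1.08 ± 0.16). Of 13 partners and reported targets of EGR1, 4 fell, 3 rose and 6 did not pass (median -0.28). GDF15 (-2.32 ± 0.15), NFKBIA (-0.82 ± 0.10) and THBS1 (-0.40 ± 0.06) fell and PDGFA rose (0.83 ± 0.13). Of 19 genes of the JNK and p38 cascade, the main substrates of DUSP8 and DUSP10 among them, 6 fell, 3 rose and 10 did not pass (median -0.09). MAP3K1 (-1.39 ± 0.13) and MAPK12 (-0.69 ± 0.10) fell, and the scaffold gene MAPK8IP3 (0.67 ± 0.07) and MAP2K7 (0.67 ± 0.10) rose. Each of these counts is to be read beside the 21.1% of all tested genes that fell and the 20.7% that rose, and the lists were not tested as sets.

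**Figure D5:**
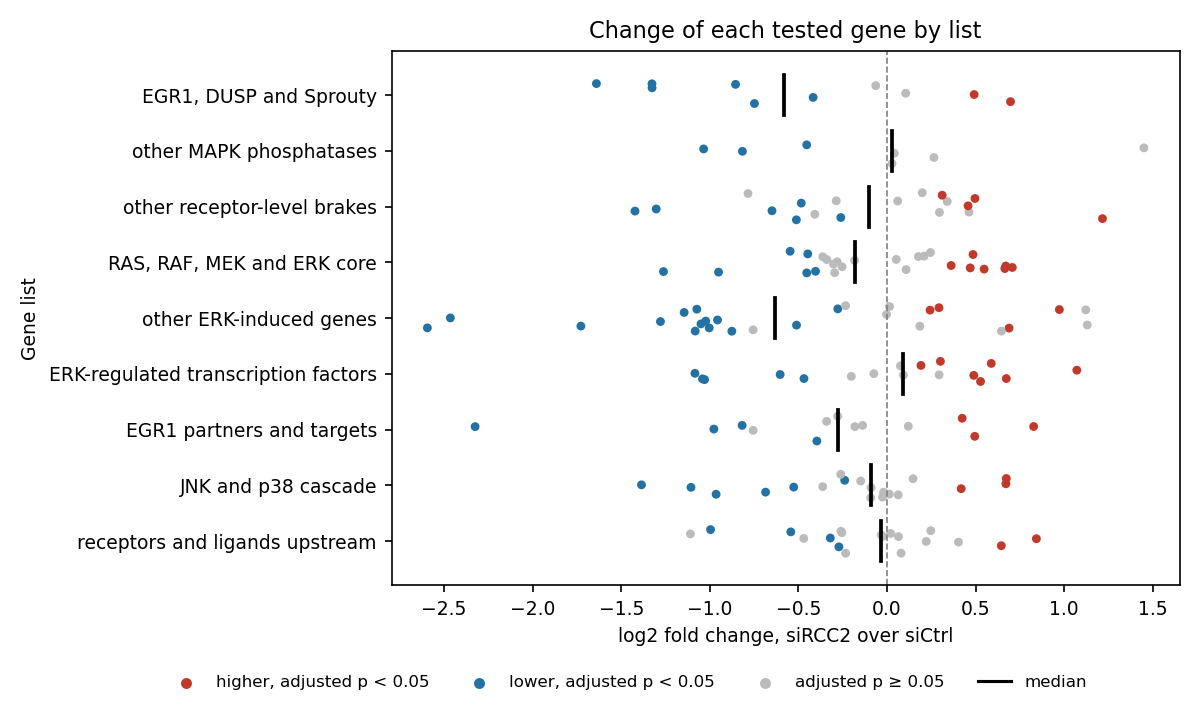
Log2 fold change, siRCC2 over siCtrl, of each tested gene in 9 lists (blue lower and red higher at an adjusted p under 0.05, grey otherwise); the black line is the list's median. The medians of the EGR1, DUSP and Sprouty genes (-0.58) and of the other ERK-induced genes (-0.63) lie lowest.

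Overlapping genes and shared sequence were looked up for each of the 10 genes. In GENCODE 29, EGR1, DUSP4, DUSP5, DUSP7, DUSP10 and SPRY2 overlap no other gene. The antisense genes that overlap DUSP1, DUSP6, DUSP8 and SPRY4 had at most 2, 5, 3 and 11 counts in any library, and the labels do not state whether strand was kept. No 50-base stretch of the longest coding transcript occurs in a transcript of another gene, except for DUSP8, where 1.94% do.

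The 3′ UTRs were searched for the 6-mer TCTGGA because genes that hold it there were lower more often in these data. Of 5553 tested genes with it, 30.1% fell, against 18.8% of 7201 without it; their median 3′ UTR lengths were 2440 and 798 bases. The 6-mer is in the 3′ UTR of DUSP5, DUSP6 and SPRY4, which fell, of DUSP8, which rose, and of DUSP10. It is not in that of EGR1, DUSP1 or DUSP4, which also fell, nor in that of SPRY2 or DUSP7. That is 5 of the 10 genes, against 43.5% of the 12754 genes searched. Its part in these changes was not tested.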

How the data were processed

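RNA from 6 DU145 libraries was sequenced, 3 siRCC2 and 3 siCtrl, grouped by sample title. The authors deposited whole-number counts per gene, 1 table per library. Bowtie2, RSEM, DESeq2 and the build GRCh38 are named, without versions, in the submitters' processing notes; RSEM shares reads among like sequences, and its estimates may have been rounded before deposit. Read length and strandedness are not stated there.

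The main test was edgeR 4.0.16 under R 4.3.3 (filterByExpr, TMM, quasi-likelihood F-test, Benjamini-Hochberg adjustment over 16536 genes, threshold 0.05). The SE is the log2 fold change over the square root of F. Levels are CPM on TMM-scaled library sizes, and per kb of the union of exons in GENCODE 29, which holds 98.5% of the gene IDs. Promoter windows are from RefSeq (GRCh38.p14), and motifs were searched on both strands. The 3′ UTR is that of the longest coding transcript, at 100 bases or more. Totals were 17377191 to 19895431 counts per library. No pair of replicates agreed within sampling noise (chi-square over its degrees of freedom, 10.3 to 35).

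The 10 genes, the other lists, the motifs and the tests were chosen with earlier results of these data known. Beside the 10 genes and RCC2, the text names up to 4 genes of each list with the smallest p, markers, overlapping genes, and the 3 genes most like EGR1, DUSP6 and SPRY4 by Pearson r of log2 CPM (prior count 2). A few genes that these rules name are not reported here. Alternatives were other scalings, DESeq2 1.42.0, limma-voom (limma 3.58.1), 2 other filters, a replicate block, leaving out each library, and a threshold of 0.01. Their use on the other lists was added after seeing the data.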

Additional observations from a re-analysis of the deposited data

How the results depend on the processing

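Of the 10 genes, 9 kept their direction and their side of the threshold in all 16 alternatives, and DUSP8 kept its direction but lost its call in 10, with adjusted p up to 0.162. The number of the 10 that changed was 8 or 7 in every alternative, 6 of them lower each time. Log2 fold changes ranged from -1.71 to -1.62 for EGR1, from -1.40 to -1.30 for DUSP1, from -1.43 to -1.26 for DUSP6, from -0.82 to -0.70 for DUSP4, from -0.49 to -0.36 for DUSP5, from -0.93 to -0.78 for SPRY4 and from 0.63 to 0.77 for SPRY2. Over all genes, 6911 changed, and 4117 did at a threshold of 0.01; leaving out 1 library gave 5112 to 7565. Scalings moved the median log2 fold change of all genes by at most 0.07. Same-numbered libraries did not deviate together (r = 0.06, -0.04 and 0.10), so the numbers are not taken to pair the samples; with the replicate number as a block, 6295 genes changed by edgeR and 5431 by DESeq2, with 7 of the 10 genes among them (adjusted p of DUSP8 0.0628 and 0.162). With the longest coding transcript as length, 6 of the 10 genes kept their rank in siRCC2 cells, where DUSP6 and DUSP7 changed places and so did DUSP8 and SPRY4, and 8 kept it in siCtrl cells, where SPRY4 and DUSP7 changed places. With 58 to 149 counts per library, DUSP8 and DUSP10 limit what small changes can be seen.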

Other observations

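The 3 genes whose levels over the 6 libraries were most like EGR1 were RCC2 (Pearson r = 0.9999), CDCP1 (0.9998) and DCAF12 (0.9997). For DUSP6 they were RHOU (0.9977), STIM2 (0.9970) and TIMM9 (0.9969), and for SPRY4 they were MFSD13A (0.9993), SYT7 (0.9992) and TNFRSF1B (0.9989). The libraries form 2 groups that differ throughout, so these values mostly record the step between the groups: of 13086 genes compared with EGR1, 11.4% had r of at least 0.95.

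AU-rich pentamers (ATTTA), which are common in short-lived mRNAs, were counted in the 3′ UTRs. DUSP1 holds 4 in 672 bases, which is 5.95 per kb, against a median of 1.67 per kb over 12754 genes. DUSP10 (3.04), SPRY2 (2.56) and SPRY4 (2.12 per kb) lie above that median, DUSP8 (1.62), DUSP4 (1.51), EGR1 (0.81) and DUSP6 (0.50 per kb) lie below it, and DUSP5 and DUSP7 hold none. Genes that rose, fell or did not pass stand on both sides of the median.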
